A study of Mus musculus with 12 samples.

Results

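A set of mature B cell genes, 9 of the 37620 genes in the count table, were followed across purified bone endothelial cells (BECs) of young and aged mice. The members were named by symbol: Ms4a1, Cd22, Cd72, Btla, Fcmr, Fcer2a, Cr2, Bank1 and Blk. Each was matched to 1 Ensembl gene ID, and all 9 were counted in every library and passed the filter on low counts in every comparison. The 12 libraries formed 4 groups of 3, which were female and male mice of the c57/Bl6 strain aged 2 or 65 weeks, with no transgene or treatment named in the labels. The cells were described as fresh from tibia, and endomucin, a glycoprotein of capillary endothelium, had served to purify them. Per the study's methods, the 3 samples with the best RNA quality in each set went on to library preparation. Values are given as CPM, in which the count of a gene is scaled by the total count of its library, and these totals ran from 26044743 to 44569600. Nothing in the labels says how many animals gave a sample, so p-values measure the spread between the 3 samples of a group.

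Mature B cells carry an antigen receptor whose signal is set by coreceptors on the same membrane. CD22, CD72 and BTLA dampen it, complement receptor 2 amplifies it when antigen is coated with complement, and the kinases and scaffolds beneath the membrane pass it on. B cells are born in bone marrow from progenitors, leave as immature cells, finish maturing in the spleen, and in part return to the marrow as recirculating cells, so a suspension made from bone can hold B lineage cells beside endothelium.

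The groups were first checked against their labels. Emcn, the gene of endomucin, had 4403 to 9348 counts per library at 2 weeks and 82 to 238 at 65 weeks. Over 22 endothelial genes, the summed level was 4316 to 7764 CPM at 2 weeks and 350.1 to 489.8 CPM at 65 weeks. With age, 22 of 22 fell in either sex. Those of highest mean CPM, Stab2, Plvap and Cdh5, had log2 -3.46, -5.25 and -5.50 in females and -3.35, -5.29 and -5.74 in males. Over 8 genes shared by all leukocytes, the summed level was 2370 to 2870 CPM at 2 weeks and 5591 to 6906 CPM at 65 weeks. Here 8 of 8 rose in either sex. Highest in mean CPM were Lcp1, Laptm5 and Coro1a, with log2 1.34, 1.21 and 1.09 in females and 1.52, 0.96 and 1.37 in males. These levels moved with age together with the B cell genes, and their part in the results below was not tested. In bulk RNA, fewer cells of a type and less RNA per cell cannot be told apart.

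A single library stood apart for the B cell genes. In the male 65-week group, replicate 3 had a summed member level of 1375 CPM, whereas replicates 1 and 2 had 355.2 and 288.0 CPM. Its level was 1.80-fold (Fcer2a) to 9.33-fold (Cd72) above the mean of the other 2 males. The same library had 117 counts of Xist, the RNA of the inactive X chromosome, against 3 and 0 in the other 2 aged males and 3527 to 4442 in aged females. Its count of the Y-linked gene Ddx3y was 1410, against 1258 and 1311 in the other 2. Whether this library holds RNA of another sample was not tested. Tests of the members that use it are given with and without it, and for the other genes its effect is given together below.

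Members are ordered by role. Ms4a1 (ENSMUSG00000024673, chr19:11227039-11243605 of GRCm39) encodes CD20, a surface protein of B cells from the late precursor stage onward. Its level was 43.2, 49.98 and 52.2 CPM in the female 2-week libraries, and 237, 153 and 148 CPM in the female 65-week libraries. In males it was 32.6, 38.2 and 44.5 CPM at 2 weeks, and 83.0, 54.5 and 224 CPM at 65 weeks. Within each sex every aged library was above every young one. Ms4a1 rose 4.06-fold in females (log2 2.02 ± 0.19 SE, adjusted p = 5.173e-05, edgeR quasi-likelihood test with Benjamini-Hochberg adjustment). In males it rose 3.34-fold (log2 1.74 ± 0.45 SE, edgeR adjusted p = 0.0128), and 1.96-fold without replicate 3 of the aged males (edgeR adjusted p = 0.00447).

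**Figure D1:**
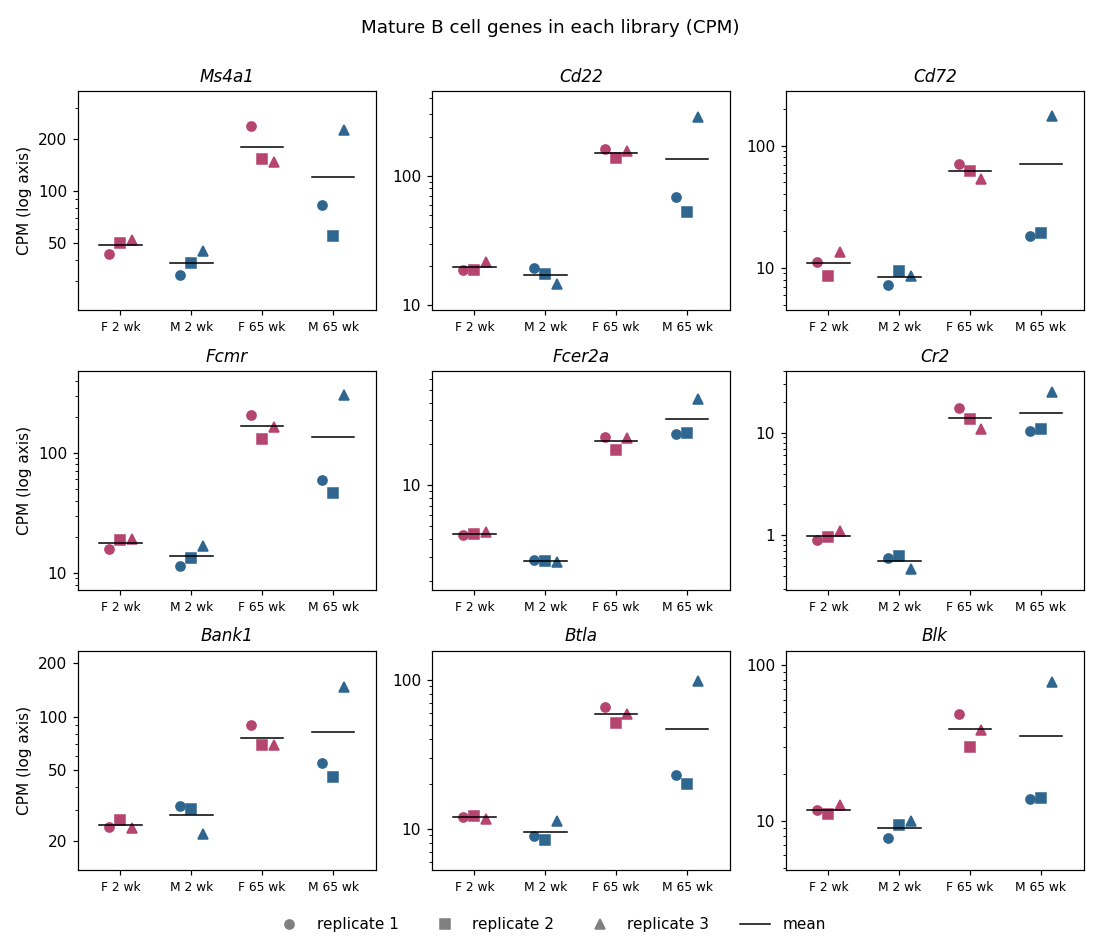
Level of each gene in CPM (log axis) in the 12 libraries, by sex (F, M) and age in weeks; symbols give the replicate and bars the mean of 3. Every 65-week library lies above every 2-week library of its sex, and replicate 3 of the aged males lies above the other 2 for all 9 genes.

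The inhibitory coreceptors came next. Cd22 (ENSMUSG00000030577, chr7:30564827-30579767) encodes a sialic acid-binding lectin that recruits phosphatases to the antigen receptor. It stood at 18.7, 18.9 and 21.7 CPM in young females and at 160, 137 and 155 CPM in aged females. In young males it stood at 19.5, 17.6 and 14.7 CPM, and in aged males at 68.6, 52.6 and 283 CPM. The 3 aged females were close to each other, while the aged males were spread from below to above all of them. Cd22 rose 8.38-fold in females (log2 3.07 ± 0.11 SE, edgeR adjusted p = 1.498e-06). It rose 8.24-fold in males (log2 3.04 ± 0.60 SE, edgeR adjusted p = 0.00362), and 3.83-fold without replicate 3 (edgeR adjusted p = 4.16e-05).

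Cd72 (ENSMUSG00000028459, chr4:43446431-43455129) encodes another inhibitory lectin, whose partner is the semaphorin CD100. Its level was 11.1, 8.65 and 13.5 CPM in young females and 70.1, 61.8 and 52.9 CPM in aged females. The male libraries gave 7.22, 9.43 and 8.53 CPM at 2 weeks and 18.3, 19.3 and 175 CPM at 65 weeks, so that replicate 3 alone carried most of the male mean. Cd72 rose 6.09-fold in females (log2 2.61 ± 0.19 SE, edgeR adjusted p = 1.417e-05). In males it rose 8.86-fold (log2 3.15 ± 0.86 SE, edgeR adjusted p = 0.0156), but only 2.44-fold without that library (edgeR adjusted p = 0.000251). Cd72 overlaps Tesk1 on the other strand, and since the use of strand in counting is not given, reads of the overlap cannot be assigned to one of them. Ms4a1, Cd22, Bank1 and Blk overlap other-strand genes that were not counted in this table.

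Btla (ENSMUSG00000052013, chr16:45044475-45078033) encodes an inhibitory receptor for the TNF receptor family member HVEM, and T cells carry it as well as B cells. Young females had 12.04, 12.2 and 11.6 CPM and aged females 65.3, 51.3 and 58.6 CPM. Young males had 8.88, 8.45 and 11.3 CPM and aged males 22.9, 19.97 and 97.9 CPM. No aged library reached down to a young one of its sex. The rise was 5.37-fold in females (log2 2.42 ± 0.10 SE, edgeR adjusted p = 1.954e-06), 5.21-fold in males (log2 2.38 ± 0.57 SE, edgeR adjusted p = 0.00914), and 2.46-fold in males without replicate 3 (edgeR adjusted p = 0.000313).

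The Fc receptors followed the same order of ages. Fcmr (ENSMUSG00000042474, chr1:130793406-130808528) encodes the receptor for the Fc part of IgM. It was at 15.7, 18.7 and 19.3 CPM in young females and at 205, 132 and 165 CPM in aged females. It was at 11.5, 13.4 and 16.7 CPM in young males and at 59.5, 46.6 and 302 CPM in aged males. The lowest aged male was still above the highest young male. Fcmr rose 10.2-fold in females (log2 3.36 ± 0.17 SE, edgeR adjusted p = 3.62e-06) and 10.4-fold in males (log2 3.38 ± 0.69 SE, edgeR adjusted p = 0.00423), or 4.19-fold in males without replicate 3 (edgeR adjusted p = 5.037e-05).

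Fcer2a (ENSMUSG00000005540, chr8:3731737-3744183) encodes CD23, the low-affinity IgE receptor, which follicular B cells carry at a high level and marginal zone B cells at a low one. Its replicates lay close together at 2 weeks, at 4.30, 4.37 and 4.52 CPM in females and 2.85, 2.80 and 2.72 CPM in males. At 65 weeks it had 22.4, 18.3 and 22.2 CPM in females and 23.8, 24.0 and 43.1 CPM in males. Unlike the coreceptors above, it was as high in replicates 1 and 2 of the aged males as in aged females. Fcer2a rose 5.23-fold in females (log2 2.39 ± 0.13 SE, edgeR adjusted p = 4.199e-06) and 11.6-fold in males (log2 3.54 ± 0.24 SE, edgeR adjusted p = 1.675e-05). Without replicate 3 the male rise was 9.32-fold (edgeR adjusted p = 1.436e-06).

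Cr2 (ENSMUSG00000026616, chr1:194819119-194859091) encodes complement receptors 2 and 1 (CD21 and CD35), which in the mouse are made from 1 gene and are found on mature B cells and follicular dendritic cells. Its level was 0.899, 0.971 and 1.10 CPM in young females and 17.3, 13.5 and 10.8 CPM in aged females. The male levels were 0.606, 0.622 and 0.468 CPM at 2 weeks and 10.5, 10.96 and 25.1 CPM at 65 weeks. The lowest of these libraries held 17 counts of Cr2, so the gene was scarce but counted in all of them. Cr2 had the largest fold among the 9 in either sex, 15.3-fold in females (log2 3.93 ± 0.23 SE, edgeR adjusted p = 5.979e-06). In males the rise was 29.05-fold (log2 4.86 ± 0.40 SE, edgeR adjusted p = 4.048e-05), and 20.4-fold without replicate 3 (edgeR adjusted p = 2.539e-06).

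The last 2 genes act inside the cell. Bank1 (ENSMUSG00000037922, chr3:135759124-136031827) encodes a scaffold that links the antigen receptor to Src-family kinases and calcium release. It was at 24.1, 26.1 and 23.7 CPM in young females and 90.1, 68.9 and 69.5 CPM in aged females. Among males it was at 31.3, 30.2 and 22.0 CPM at 2 weeks and 54.7, 45.9 and 147 CPM at 65 weeks. Bank1 had the smallest fold of the 9 in females and in males when all libraries were used. It rose 3.39-fold in females (log2 1.76 ± 0.12 SE, edgeR adjusted p = 9.99e-06), 3.15-fold in males (log2 1.66 ± 0.40 SE, edgeR adjusted p = 0.00965) and 1.97-fold in males without replicate 3 (edgeR adjusted p = 0.00186).

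Blk (ENSMUSG00000014453, chr14:63610285-63654587) encodes a Src-family kinase of the B lineage that is already present in precursor B cells. Its level was 11.8, 11.1 and 12.6 CPM in young females and 48.6, 29.8 and 38.3 CPM in aged females. Young males had 7.74, 9.45 and 9.96 CPM and aged males 13.8, 14.04 and 77.5 CPM. The 2 lower aged males were less than 2-fold above the young ones. Blk rose 3.602-fold in females (log2 1.85 ± 0.17 SE, edgeR adjusted p = 5.6e-05) and 4.10-fold in males (log2 2.03 ± 0.63 SE, edgeR adjusted p = 0.027), or 1.68-fold in males without replicate 3 (edgeR adjusted p = 0.00405).

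Across the age comparisons, 9 of 9 members rose in females, where 30.2% of the 15120 genes tested were called higher at 65 weeks. In males 9 of 9 rose, against 27.0% of 14959 genes, and without replicate 3 it was 9 of 9 against 29.3% of 15437. In females the libraries of the 2 ages did not overlap for 9 of 9 members, with every aged library higher, as for 27.6% of all genes. The same held in males for 9 of 9 members and 26.0% of genes, and for 9 of 9 and 30.8% without replicate 3. The median log2 fold change of the members was 2.42 in females and 3.04 in males, beside 0.01 over all genes in either sex. Leaving replicate 3 out moved the male median from 8.24-fold to 2.46-fold. With library totals in place of TMM factors, the share of age calls that were higher went from 50.6% to 40.2% in females and from 48.7% to 40.5% in males, while the 9 members stayed called higher in both. In males, Cd72 and Blk were no longer called in the fits that left out any 1 of the young male libraries, with 7 of 9 called in each.

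**Figure D2:**
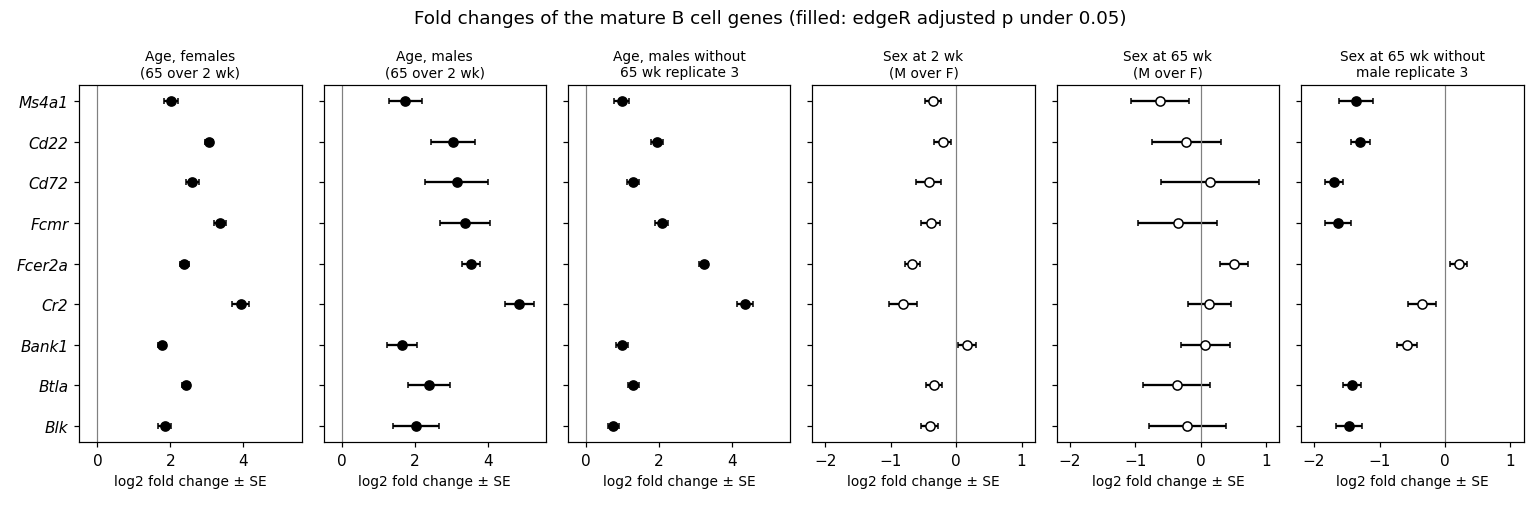
Log2 fold change of each gene (point) with its SE (bar) in the age comparisons and the sex comparisons, with and without replicate 3 of the aged males; filled points passed an edgeR adjusted p of 0.05. All 9 were called in each age comparison, none in either sex comparison with all libraries, and 6 at 65 weeks once that library was left out.

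Levels were set against each other only per length, as CPM per kilobase of merged exons. In aged females Fcmr had the highest level, 91.2 ± 20.2 CPM per kilobase (SD, n = 3). Cd22 with 29.9 ± 2.39 and Ms4a1 with 29.0 ± 8.12 came next and were within their spread of each other. Cd72 at 15.6 ± 2.18, Btla at 14.9 ± 1.79 and Blk at 13.9 ± 3.37 followed, and neighbours among these 3 differed by less than their SDs. Bank1 at 10.2 ± 1.61 was below Blk by more than the SD of either gene. Fcer2a at 6.77 ± 0.764 and Cr2 at 1.68 ± 0.400 CPM per kilobase were the lowest. In young females the order again began with Fcmr at 9.77 ± 1.05 and Ms4a1 at 7.83 ± 0.760 and ended with Fcer2a at 1.42 ± 0.0356 and Cr2 at 0.120 ± 0.0122 CPM per kilobase. Blk, with 4.23 ± 0.279, and Cd22, with 3.91 ± 0.334, stood between them, so Cd22 was below Ms4a1 at 2 weeks and level with it at 65 weeks. In young males Fcmr at 7.56 ± 1.43 and Ms4a1 at 6.21 ± 0.967 CPM per kilobase again led and were within their spread of each other. In aged males the SD of Fcmr, 74.3 ± 78.5 CPM per kilobase, was as large as its mean, so no order is given for that group.

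The sexes were compared at each age. At 2 weeks, 8 of 9 members were lower in males, the exception being Bank1 (log2 0.16 ± 0.14 SE). None was called by edgeR, where 0.0332% of 15081 genes were called in either direction. An unadjusted edgeR p under 0.05 was found for 6 of 9 members and for 2683 of the 15081 genes. DESeq2 called 1 member, Fcer2a, and 447 genes in all. For Fcer2a, Cr2, Btla and Blk every male library was below every female one, 4 of 9 members beside 11.8% of all genes. Cr2 gave the largest difference (log2 -0.81 ± 0.22 SE, edgeR adjusted p = 0.213), followed by Fcer2a (log2 -0.67 ± 0.12 SE, edgeR adjusted p = 0.213). Ms4a1, Cd72, Fcmr, Btla and Blk differed by log2 -0.42 to -0.34, and Cd22 by -0.21.

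At 65 weeks, none of the 9 was called between the sexes by edgeR, where 0.0420% of 14287 genes were called in either direction. Only 1 member, Fcer2a, had an unadjusted edgeR p under 0.05, as did 1479 of the 14287 genes. DESeq2 called none of the 8 members for which it gave an adjusted p, and 398 genes in all. Fcer2a was also the 1 member whose male libraries were all above the female ones, as were 9.32% of all genes (log2 0.50 ± 0.21 SE, edgeR adjusted p = 0.47). For the other 8 the SE was 0.33 to 0.75 on the log2 scale. Replicate 3 of the aged males exceeded all 3 aged females for every member but Ms4a1, whereas replicates 1 and 2 were below all aged females for every member but Fcer2a and Cr2.

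Without that library, 6 of 9 members were lower in aged males than in aged females, where 3.68% of 14700 genes were called lower. These were Ms4a1 (log2 -1.36 ± 0.26 SE), Cd22 (-1.29 ± 0.14), Cd72 (-1.69 ± 0.14), Fcmr (-1.63 ± 0.20), Btla (-1.43 ± 0.14) and Blk (-1.46 ± 0.20), with edgeR adjusted p-values from 0.00265 to 0.0259. Bank1 differed by log2 -0.58 ± 0.15 SE (edgeR adjusted p = 0.0655), and its libraries did not overlap either, making 7 of 9 members beside 22.5% of all genes. Cr2 (log2 -0.35 ± 0.21 SE, edgeR adjusted p = 0.381) and Fcer2a (log2 0.21 ± 0.13 SE, edgeR adjusted p = 0.406) were not called. None of the 9 was called higher in males, where 1.97% of all genes were. With 2 males in the comparison, their spread was taken to be like that of the females. The library left out had been set apart by its high values of these same members. Its removal lowers the male levels, so these calls and p-values depend on that choice.

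The difference of the sex effect between the ages was tested with an interaction term on the 12 libraries. None of the 9 was called by edgeR, where 0.00635% of 15747 genes were called. An unadjusted edgeR p under 0.05 was found for 1 of 9, Fcer2a, and for 1880 of the 15747 genes. Fcer2a was also called by DESeq2, which called 394 genes in all. The sex difference of Fcer2a moved from lower in males at 2 weeks to higher at 65 weeks, by log2 1.15 ± 0.27 SE (edgeR adjusted p = 0.141). Without replicate 3 of the aged males 6 of 9 were called, beside 4.66% of 16089 genes. These calls, too, depend on leaving out a library that the members' own values had set apart. Cd22, Cd72, Fcmr, Btla and Blk then had interactions of log2 -1.28 to -1.06, and Fcer2a one of 0.88 ± 0.17 SE (edgeR adjusted p = 0.0203). With and without the library, the interaction stayed positive for Fcer2a and Cr2 and negative for Ms4a1, Cd22, Bank1 and Btla. For Cd72, Fcmr and Blk it changed sign.

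The members were then set beside other genes of the lineage. The counts that follow are to be read against the 30.2% of genes called higher and 29.5% called lower with age in females, and 27.0% and 28.5% in males. In a list of the antigen receptor and its signalling, 22 of 25 genes rose and 2 fell in aged females, and 21 rose and 2 fell in aged males. Syk, the kinase that binds the phosphorylated receptor, rose by log2 1.59 in females and 1.53 in males, and Lyn, a Src-family kinase, by 1.03 and 0.56. Cd81, a tetraspanin, fell by 0.47 and 0.77. Of 25 mature B cell surface and homing genes, 19 rose and 3 fell in either sex. Ighm, the IgM heavy chain, had the highest level, and rose by log2 5.05 in females and 5.07 in males, above any of the 9 members. Cd24a, a surface glycoprotein, had log2 0.40, not called, in females and rose by 0.63 in males.

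Among 22 transcription factors of the B lineage 17 rose and 2 fell in females, and 11 rose and 2 fell in males. Ikzf1, Notch2 and Spi1, which also act in other blood cells or, for Notch2, outside blood, rose by log2 0.86, 1.53 and 1.23 in females and by 1.14, 1.46 and 1.42 in males. Of 15 genes of early B cell development, 7 fell, 2 rose and 6 were not called in females, and 10 fell and 3 rose in males. Among the genes of precursor B cells, which were picked after their values were seen, Igll1, part of the surrogate light chain, fell by 2.55 on the log2 scale in females and by 2.63 in males (edgeR adjusted p = 0.000724 and 0.000255). Dntt, which adds bases at the joints of antigen receptor genes, fell by 1.85 and 2.25. Rag1, which cuts those genes, had log2 -0.22, not called, in females and fell by 1.78 in males, and Vpreb3 was not called in either sex (-0.33 and -0.63). Cd93, Akap12 and Sox4 had the highest levels in this list and fell in both sexes, by 1.43, 2.49 and 1.15 in females and by 2.06, 2.77 and 1.95 in males. Cd93 is also an endothelial gene, and Erg stands both in this list and in the endothelial list. How far endothelial expression took part in the falls of this list was not tested.

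Of 18 plasma cell genes 15 rose and 2 fell in females, and 13 rose and 3 fell in males. Jchain, which joins IgM and IgA into polymers, was at 4.98 ± 1.24 CPM in young and 958 ± 68.6 CPM in aged females (SD, n = 3). The other leading genes of that list, Ighg2b and Ighg2c, are IgG heavy chains and rose in both sexes. The T and NK cell list, which bears on Btla, summed to 90.2 to 108 CPM in young and 164 to 282 CPM in aged libraries, and 19 of 21 genes rose in females and 12 of 20 in males. Its leading genes were Cd4 (log2 1.49 and 1.27 in females and males, both called), Cd2 (2.79 and 2.81, both called) and Lck, which was not called in females (-0.33) and fell by 0.79 in males. Cd2 is also among the genes most like the members, given below. It was at 54.1 CPM in replicate 3 of the aged males, against 13.4 and 11.8 in the others. Which cells its RNA came from was not tested. Myeloid genes rose too, 16 of 17 in either sex. Highest in mean CPM were S100a9, S100a8 and Lyz2 of neutrophils and monocytes (log2 1.19, 1.21 and 1.46 in females and 2.36, 2.35 and 1.75 in males). The dendritic list had 4 genes higher and 2 lower of 13 in females and 4 and 5 in males, near the shares over all genes for those higher. Of its leading genes, Irf8 rose by 0.72 in females and had 0.63, not called, in males, Tcf4 fell by 0.46 and 0.85, and Bst2 had -0.17, not called, in females and fell by 0.71 in males.

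In replicate 3 of the aged males the summed levels of the lists did not move alike. Its antigen receptor list summed to 4976 CPM against 2825 and 2738 in the other 2, its transcription factors to 2867 against 1774 and 1710, and its dendritic list to 598 against 359 and 331. Irf8 and Tcf4 stand in both the transcription factor list and the dendritic list. In replicate 3 Irf8 was at 287 CPM against 140 and 122, and Tcf4 at 112 against 56.8 and 49.0, so the dendritic sum is not separate from the transcription factors. The sum of the surface and homing list went the other way, at 11173 CPM against 14856 and 13915. Its top gene, Ighm, was at 7023 CPM against 10700 and 9713. Without Ighm, that list summed to 4150 to 4202 CPM in the aged males. Cd24a, next in level, was also lower in replicate 3, at 2136 CPM against 3123 and 3333. A sum without both genes is not given, so these sums do not speak for the rest of the list. The myeloid list summed to 26112 CPM against 35119 and 33388, and the endothelial list to 401 against 357 and 350. For age in males without it, 19 antigen receptor genes rose and 2 fell, 18 surface genes rose and 4 fell, 11 transcription factors rose and 5 fell, 3 early genes rose and 11 fell, and 15 myeloid genes rose, where 29.3% of all genes rose and 32.7% fell. The plasma cell, T and NK cell, dendritic, endothelial and pan-leukocyte counts were as with it. The male rise of Cd2 went from 6.99-fold to 3.43-fold, the fall of Rag1 from 3.44-fold to 7.16-fold, and Vpreb3 was then called lower (log2 -1.19, edgeR adjusted p = 0.0055). In the sex comparison without it, 11 of 25 antigen receptor genes, 12 of 24 surface genes and 14 of 22 transcription factors were lower in aged males than in aged females, beside 3.68% of all genes, and 6 of 17 myeloid genes were higher, beside 1.97%. With it, none of these was called between the sexes by edgeR. These counts, too, depend on leaving out a library that the members' high values had set apart. Its antigen receptor and transcription factor sums were high as well, so its removal lowers the male levels of those lists. How far the makeup of cells in that library took part in the members' values was not tested.

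**Figure D3:**
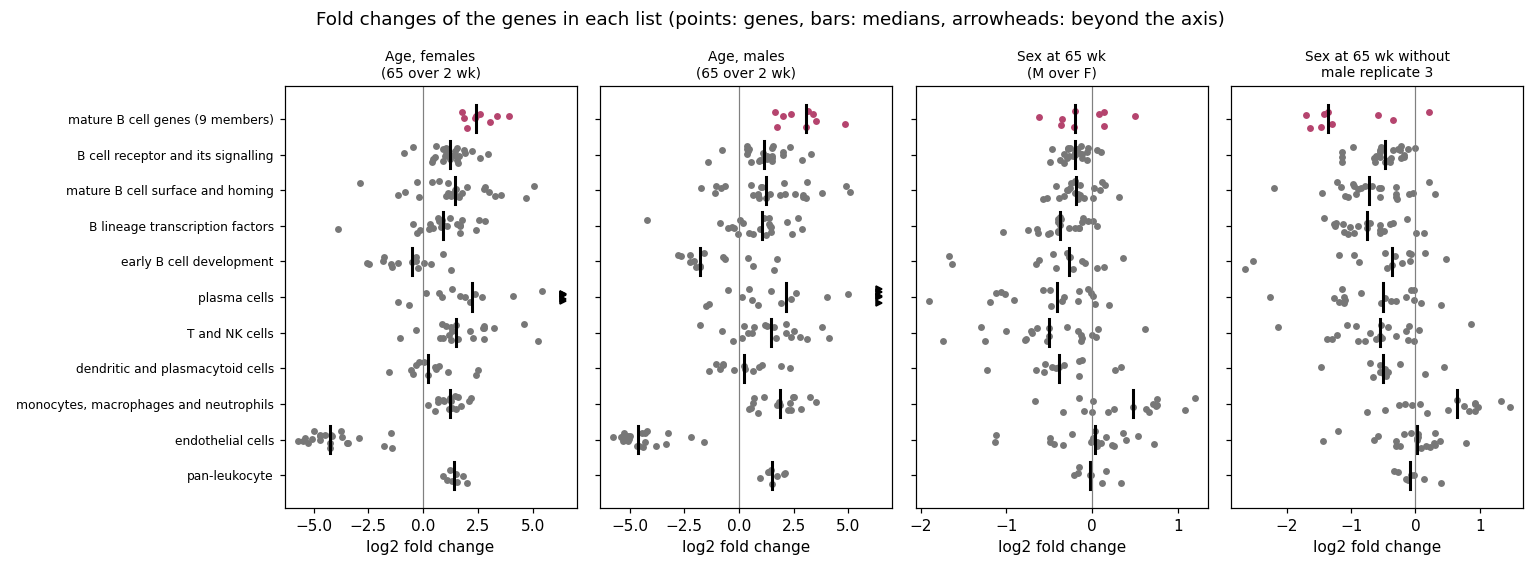
Log2 fold change of every tested gene (point) in the 9 members and 10 other lists, with the median (bar), for age in each sex and for sex at 65 weeks with and without replicate 3 of the aged males; arrowheads stand for plasma cell genes beyond the axis. The members' medians were 2.42 and 3.04 for age and -0.20 and -1.36 for sex.

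The genes most like the members over the 12 libraries were found by the root mean square difference between a gene's standardised log2 CPM and the mean profile of the 9, among 12955 genes with a mean of at least 1 CPM. Scml4 (0.096), H2-Ob (0.102), Cd2 (0.107), Gpr174 (0.117) and Fam169b (0.123) came first, beside a median of 1.51 over all genes. H2-Ob, a chain of the class II chaperone of B cells, had 10.9 ± 0.599 CPM in young and 68.0 ± 14.2 CPM in aged females (SD, n = 3), and 127 CPM in replicate 3 of the aged males. Among the members Fcmr (0.0867) lay nearest the common profile and Fcer2a (0.343) farthest. With the mean of each group taken away first, Ptprcap (0.0977), Rfk (0.116), Scml4 (0.147), Pde7a (0.169) and H2-Ob (0.175) came first, beside a median of 1.19. Rfk, a riboflavin kinase, was at 72.2 CPM in replicate 3 and at least 50.9 CPM in the other aged males, so the likeness is one of shape and not of size.

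Since the 9 genes rose together, the 250 bases before their starts were searched for letters bound by B lineage factors, with sequences from RefSeq (GRCm38.p6), which held 7 of the 9 members. Ms4a1 and Blk had no entry. The last 100 bases are shown for 6 members, with the matches in capitals, read 5′ to 3′ on the strand of the gene up to its start.
Cd22, chr7:30879029-30879128, minus strand: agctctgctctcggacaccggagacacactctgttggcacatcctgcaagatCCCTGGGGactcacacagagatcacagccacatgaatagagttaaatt
Bank1, chr3:136326067-136326166, minus strand: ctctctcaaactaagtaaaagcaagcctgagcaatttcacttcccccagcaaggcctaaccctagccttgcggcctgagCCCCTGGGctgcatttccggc
Fcmr, chr1:130865677-130865776, plus strand: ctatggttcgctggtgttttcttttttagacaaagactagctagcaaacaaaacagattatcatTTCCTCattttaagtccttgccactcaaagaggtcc
Cd72, chr4:43454627-43454726, minus strand: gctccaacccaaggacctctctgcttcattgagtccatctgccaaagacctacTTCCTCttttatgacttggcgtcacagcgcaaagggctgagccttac
Btla, chr16:45224237-45224336, plus strand: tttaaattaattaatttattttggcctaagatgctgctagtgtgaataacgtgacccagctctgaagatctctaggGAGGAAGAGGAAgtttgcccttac
Cr2, chr1:195176720-195176819, minus strand: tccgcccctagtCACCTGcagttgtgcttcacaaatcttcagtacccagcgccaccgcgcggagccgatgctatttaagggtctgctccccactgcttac

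The pattern CCCNNGGG of EBF, the factor that sets up the B cell programme, was found in Cd22 and Bank1, starting 48 and 21 bases before the start. It reads the same on both strands and was in 11.8% of all 32851 promoters of that length. The core GAGGAA of the PU.1 type was found in Fcmr (36 bases before the start), Cd72 (47 bases) and Btla (24 and 18 bases, side by side), and in 23.3% of all promoters. The E-box CAGGTG was in Cr2 (88 bases before the start) and, farther out in bases not all shown, in Bank1, Cd22 and 1 of 3 listed starts of Fcer2a, and in 17.2% of all promoters. The octamer ATGCAAAT was in none of the 7 and in 1.601% of all. Both strands were searched, so TTCCTC and CACCTG in the lines above are GAGGAA and CAGGTG read on the other strand, and no pattern was shared by all 7. Cd22 and Bank1, which share the EBF letters, had age folds near the upper and at the lower end of the members in females, 8.38 and 3.39. Whether any of these letters takes part in the change with age was not tested.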

How the data were processed

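RNA of 12 purified BEC samples had been sequenced with paired reads. The deposited values are counts per gene, not normalised by the authors. Per the labels, reads had been aligned to mm9 with TopHat2 and counted with HTSeq, whereas the study's methods name GRCm39, STAR and featureCounts. Which of these made the deposited counts, the annotation release and the use of strand are not given in the sources used here, nor was it resolved whether cells were sorted or held on beads. Gene names and coordinates came from GENCODE M39 (GRCm39) by Ensembl ID, with 31052 of 37620 IDs found. Promoter sequences were from RefSeq (GRCm38.p6).

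Libraries were grouped by the sex and age in their labels. The main test was the quasi-likelihood F test of edgeR 4.0.16 under R 4.3.3, on genes kept by filterByExpr (minimum count 10) and scaled by TMM. P-values were adjusted by Benjamini-Hochberg over all genes tested and called at 0.05. Ages were compared within each sex and sexes within each age on 6 libraries, and the interaction on 12. The comparisons of sex and of age share libraries with each other. SEs were derived from the F statistic. CPM used library totals. The fits were tested on simulated counts with known fold changes and the same spread in every group. No simulated library stood apart as replicate 3 of the aged males did, so the simulation does not bear on that case. Library totals ran from 26044743 to 44569600 counts, and intervals from counting would cover counting error only. Alternatives were DESeq2 1.42.0, RLE scaling, library totals, no filter, 1 model over all 12 libraries, replicate number as a block, and leaving out each library. The list counts without replicate 3 of the aged males were added after the values had been seen. That library was also singled out for the member tests by the members' own values.

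The members and all lists were chosen with earlier results of these data known, so no p-value over a list is given. The lists share some genes, among them Erg, Irf8, Tcf4, Pou2af1, Cd28 and Flt3. All 9 members are named in each comparison, with the 3 genes of highest mean CPM from each other list except any not reported here, and the 5 non-member genes most like the members. Igll1, Dntt, Rag1, Vpreb3, Xist, Ddx3y and Emcn are further checks, chosen after values were seen.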

Additional observations from a re-analysis of the deposited data

Results flagged for a closer look

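For 3 of the genes named above, every male library was below every female one at 2 weeks and above every female one at 65 weeks. Over all genes tested, 11.8% were lower in males without overlap at 2 weeks, and 9.32% higher without overlap at 65 weeks. The share of all genes that met both was not counted. Fcer2a had an interaction of log2 1.15 ± 0.27 SE (edgeR adjusted p = 0.141). S100a9, a subunit of the neutrophil protein calprotectin, had log2 1.18 ± 0.25 SE (edgeR adjusted p = 0.128). S100a8, its partner, had log2 1.14 ± 0.26 SE (edgeR adjusted p = 0.129). With all libraries none of the 3 passed the threshold after adjustment over all genes. Without replicate 3 of the aged males each did: Fcer2a with log2 0.88 (edgeR adjusted p = 0.0203), S100a9 with 1.38 (edgeR adjusted p = 0.0111) and S100a8 with 1.33 (edgeR adjusted p = 0.0161). These p-values depend on leaving out a library that the members' own values had set apart. It was also the lowest aged male for S100a9, at 5469 CPM against 8296 and 7405, and for S100a8, at 3846 against 5814 and 4817. The 3 genes had been flagged by their values in these same libraries.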

How the results depend on the processing

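The age results kept their direction under every alternative run: of 108 recomputed member values in females and 107 in males, 0 reversed, and 6 in males, of Cd72 and Blk, were no longer called. With 1 library left out, 9 of 9 members stayed called in females and 7 to 9 in males. DESeq2 gave no adjusted p for Cd72 in males, in the age comparison or at 65 weeks, and called the other 8 for age. Library totals moved the median of all genes by -0.13 (females) and -0.12 (males) on the log2 scale.

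The sex and interaction counts depended on the tool. For sex at 2 weeks 5 genes were called, with 447 by DESeq2, 8 by 1 model over all libraries and 5 to 11 with 1 library left out; DESeq2 called 1 member. At 65 weeks 6 genes were called, with 398 by DESeq2, 10 with library totals, 105 without a filter, 254 by 1 model over all libraries and 5 to 830 with 1 library left out, when 0 to 6 members were called. For the interaction 1 gene was called, with 394 by DESeq2 (1 member), 7 without a filter and 0 to 750 with 1 library left out (0 to 6 members). The cause was not tested, beyond the values of replicate 3 of the aged males given above.

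Members near 0 changed sign. With 1 library left out, the sex difference at 65 weeks spanned log2 -0.58 to 0.36 for Bank1, -1.46 to 0.19 for Blk, -1.29 to 0.17 for Cd22, -1.69 to 0.61 for Cd72, -0.35 to 0.35 for Cr2 and -1.63 to 0.061 for Fcmr. The interaction spanned -0.74 to 0.17 for Bank1, -1.06 to 0.55 for Blk, -1.08 to 0.31 for Btla, -1.08 to 0.35 for Cd22, -1.28 to 0.98 for Cd72, -1.24 to 0.42 for Fcmr and -1.01 to 0.056 for Ms4a1. Library totals gave interactions of 0.0081 for Btla and 0.027 for Cd22.

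Replicate numbers did not pair the libraries: deviations of same-numbered libraries correlated at -0.354 to 0.14, and in 4 of 36 cases a library correlated best with its own number. With the replicate block, 9, 9, 0, 0 and 0 members were called in the 5 comparisons and 0 genes for the interaction, and signs changed for Bank1 (-0.10) and Cd72 (-0.73) at 65 weeks and for the interactions of Blk (-0.090), Cd72 (-0.020) and Fcmr (-0.27). At this depth the fewest counts of a member in a library were 17, for Cr2. With 3 libraries a group, the spread between libraries limited the sex comparisons.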
